A study of Drosophila melanogaster with 20 samples.

Results

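Immune and stress effector genes, 10 in number, were followed across all 20 arrays. AttA, AttC, CecA2, CecC and Dpt encode antibacterial peptides, and PGRP-SC2 encodes an amidase that degrades peptidoglycan. CG15065 and CG16836, which RefSeq names BomS5 and BomT2, encode Bomanin peptides, and TotA and TotC are Turandot stress genes. They are 10 of the 390 genes that could be named in the series. The table of values carries no gene names, so a row was named by matching the mean ratio that the study lists for a gene to the mean of the 4 arrays of that experiment. The genes were chosen by measured values, the mated over virgin ratios that placed each of them in at least 1 of the study's 5 lists of 100 top-ranked genes, so the mated over virgin ratios of a gene in a listing experiment are given as a description with no test. Of the 50 gene and experiment pairs 13 were listed in this way, 7 of them in brains. The heads held none at 0-2 h, 1 each at 24 and 48 h, and 4 at 72 h.

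On every array RNA of mated Canton S females was set directly against RNA of virgin Canton S females of the same age. The 5 experiments, with 4 arrays each, used dissected brains at 24 h after mating and heads at 0-2, 24, 48 and 72 h. Females were 5 days old when they were paired with males of genotype w; P[UAS-dj-GFP], whose tagged sperm showed which females had mated, and those females were sorted under CO2 anaesthesia. At 0-2 h the virgins were anaesthetised too and had not met males. Each sample pooled about 100 heads, with 20 µg of RNA labelled directly, or 20 brains, whose RNA was amplified before labelling. RNA of mated females carried the dye Cy3 on replicates 1 and 2 and Cy5 on replicates 3 and 4, and the 4 arrays of an experiment held independent biological samples. All values below are log2 ratios of mated over virgin as deposited, so positive values are higher and negative values are lower in mated females.

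Insects meet bacteria and fungi with peptides that the fat body and other tissues secrete into the haemolymph. Attacins, cecropins and diptericin act mainly on bacteria and are induced largely by the immune deficiency pathway through the transcription factor Relish, whereas most Bomanins are targets of the Toll pathway. PGRP-SC2 cleaves peptidoglycan and thereby dampens the immune deficiency pathway, and Turandot proteins are secreted after stress under control of the JAK-STAT pathway.

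In brains of mated females the mean of every gene lay above 0, and the median of the 10 means was 1.04, against -0.01 over all 6498 probes tested. In heads at 72 h the antibacterial genes and PGRP-SC2 had only values below 0, 19 of 19. Values of the Bomanin and Turandot genes there lay on both sides of 0. In brains 7 of the 10 genes were listed. At 72 h AttC, CecC, Dpt and PGRP-SC2 were listed, but no Bomanin or Turandot gene. Nothing is read from these patterns, since the listing favours them and the 19 values pool genes that share arrays. Of all probes with at least 3 values at 72 h, 11.6% had all of them below 0. Over the 10 genes the 4 head experiments had median means, from 0-2 to 72 h, of 0.16, 0.21, 0.24 and -0.59 (6, 7, 7 and 10 genes with 2 or more values), with 0.01, 0.03, 0.01 and 0.01 over all probes tested. With values required on all 4 arrays the median was -0.15 at 48 h (4 genes) and -0.089 at 72 h (7 genes), and at 48 h it was -0.11 without replicate 1 and 0.55 without replicate 4.

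**Figure D1:**
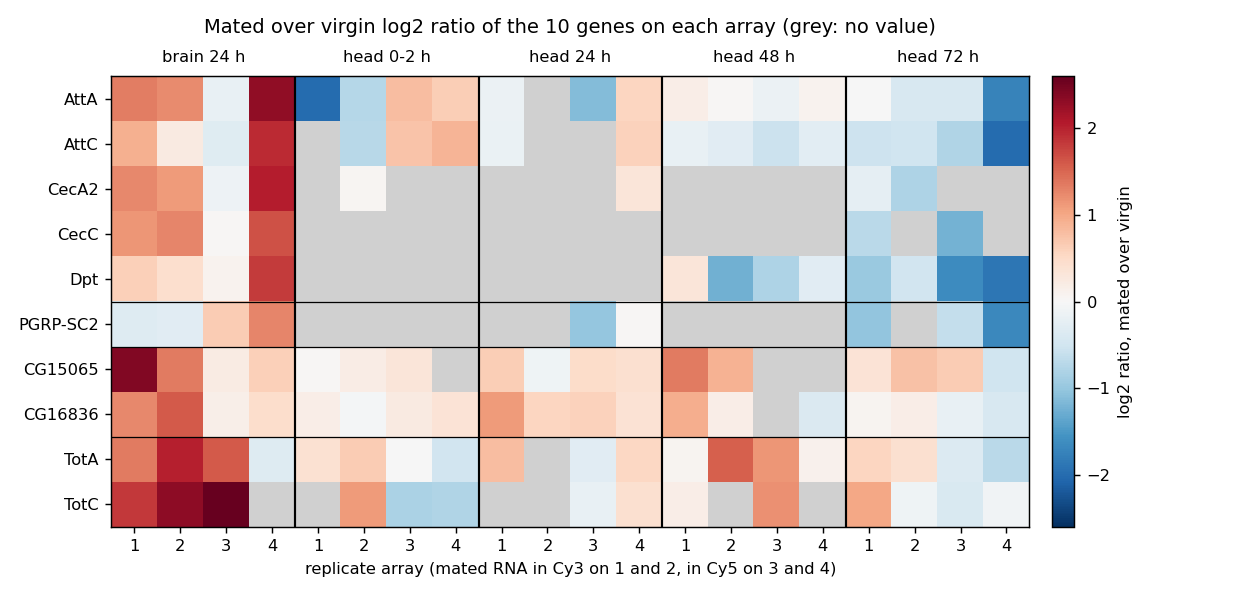
Log2 ratio, mated over virgin, of the 10 genes (down the page, with lines between the antibacterial genes, PGRP-SC2, the Bomanin genes and the Turandot genes) on each of the 20 arrays (replicates 1 to 4 of brains at 24 h and of heads at 4 times), with grey where an array has no value. Brains, where 7 of the 10 genes were listed, are mostly red. The upper 6 genes in heads at 72 h are blue in all 19 values, and AttC, CecC, Dpt and PGRP-SC2 among them were listed there. The brain arrays differ among themselves, with replicate 3 near 0 for the antibacterial genes.

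Of 40 possible values 39 were there in brains. In heads 22 of 32, 21 of 32, 23 of 40 and 35 of 40 were there from 0-2 to 72 h for the members with a spot. A listed gene had to have values in the listing experiment, so these counts follow in part from the choice of members. CecC and Dpt lie on plates whose layout differed at 0-2 and 24 h, so they have no value there, and PGRP-SC2 has none at 0-2 h and 48 h. The deposited values are ratios, so the level of a transcript, and the tissue of a sample by the level of its markers, could not be read. In samples pooled from whole tissue, fewer cells of a type and less RNA per cell cannot be told apart.

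AttA encodes an attacin, an antibacterial peptide, and was among the listed genes in brains. Its log2 ratio was 1.33, 1.22, -0.19 and 2.31 on brain replicates 1 to 4, a mean of 1.17 ± 1.03 (SD, n = 4) or 2.25-fold. The brain arrays were split, with 3 well above 0 and replicate 3 just below it, and without replicate 4 the mean was 0.79, without replicate 3 it was 1.62. In heads it was -2.01, -0.74, 0.80 and 0.63 at 0-2 h, and -0.14, -1.13 and 0.55 at 24 h on replicates 1, 3 and 4. At 48 h the 4 values lay close to 0, between -0.16 and 0.18. At 72 h they were -0.01, -0.42, -0.42 and -1.75, a mean of -0.65 ± 0.76 (SD, n = 4), so all 4 arrays were on the low side and replicate 4 alone was below -1; without it the mean was -0.28.

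AttC, another attacin gene, was listed at 72 h, where it had -0.53, -0.53, -0.78 and -1.99, a mean of -0.96 ± 0.70 (SD, n = 4), or 1.94-fold lower in mated heads. Without replicate 4 this was -0.61. At 48 h its 4 values lay between -0.56 and -0.20, all below 0 and within a narrow band. In brains it had 0.92, 0.23, -0.31 and 1.94, again with replicate 4 highest and replicate 3 lowest. Its 0-2 h values were -0.73, 0.73 and 0.88 on replicates 2 to 4, and at 24 h only -0.18 and 0.59 were present, on replicates 1 and 4.

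CecA2 and CecC encode cecropins, short antibacterial peptides that disrupt bacterial membranes. CecA2 had 1.25, 1.10, -0.13 and 2.05 on the brain arrays, a mean of 1.07 ± 0.90 (SD, n = 4), and CecC had 1.14, 1.26, 0.02 and 1.65, a mean of 1.02 ± 0.70 (SD, n = 4). Both were listed in brains, at 2.10-fold and 2.03-fold, and both had replicate 4 highest and replicate 3 at about 0. Heads gave few values for either gene. CecA2 had a single value at 0-2 h (0.05) and at 24 h (0.32), none at 48 h, and -0.23 and -0.81 on replicates 1 and 2 at 72 h. CecC had none at 48 h and -0.70 and -1.22 on replicates 1 and 3 at 72 h, where it was listed, a mean of -0.96 ± 0.37 (SD, n = 2). Its 4 brain values lay above 0 and its 2 values at 72 h below 0, in experiments that both listed it.

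Dpt encodes diptericin, the peptide most often used to read the immune deficiency pathway. At 72 h, where it was listed, it had -0.96, -0.49, -1.64 and -1.88, a mean of -1.24 ± 0.63 (SD, n = 4), or 2.37-fold lower in mated heads, the lowest mean of the 10 genes there. Its brain values were 0.62, 0.43, 0.10 and 1.81, all above 0 with replicate 4 highest; the mean was 0.74, and 0.38 without that replicate. The 72 h values of Dpt were all below 0, in the experiment that listed it. At 48 h Dpt had 0.31, -1.24, -0.81 and -0.30, which spread over both sides of 0.

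PGRP-SC2 followed the antibacterial genes at 72 h but not on every brain array. At 72 h, where it was listed, it had -1.02, -0.61 and -1.67 on replicates 1, 3 and 4, a mean of -1.10 ± 0.53 (SD, n = 3) or 2.14-fold lower in mated heads. In brains it had -0.34, -0.30, 0.66 and 1.28, so replicate 4 was highest here as well, but replicates 1 and 2 were below 0, where all 5 antibacterial genes were above it, and replicate 3 was above 0, where AttA, AttC and CecA2 were below it and CecC and Dpt slightly above. Without replicate 4 its brain mean was 0.01. The only other values were -1.01 and 0.03 at 24 h, on replicates 3 and 4.

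Of the 8 members with at least 3 values at 72 h, 4 (AttA, AttC, Dpt and PGRP-SC2) had all of them below 0, as 11.6% of 4922 probes did. AttC, Dpt and PGRP-SC2 were listed at 72 h, so nothing is read from the count. Of the fat body markers 5 of 6 had a mean below 0 at 72 h, with a median of the means of -0.89, and by array their median was -1.36, -0.28, -0.18 and -1.63 against -0.62, -0.51, -0.78 and -1.81 for the 6 genes. At 24 and 48 h the fat body median was farther below 0, at -2.11 and -2.35. The median of the antibacterial genes with PGRP-SC2 was -0.24 at 24 h (3 genes) and -0.33 at 48 h (3 genes). The fat body markers Lsp2, to and Obp99b were themselves listed at 24, 48 and 72 h, Lsp1beta at 24 and 48 h, fit at 24 h and Tsf1 at 48 h. The part of the fat body in the 72 h values was not tested.

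**Figure D2:**
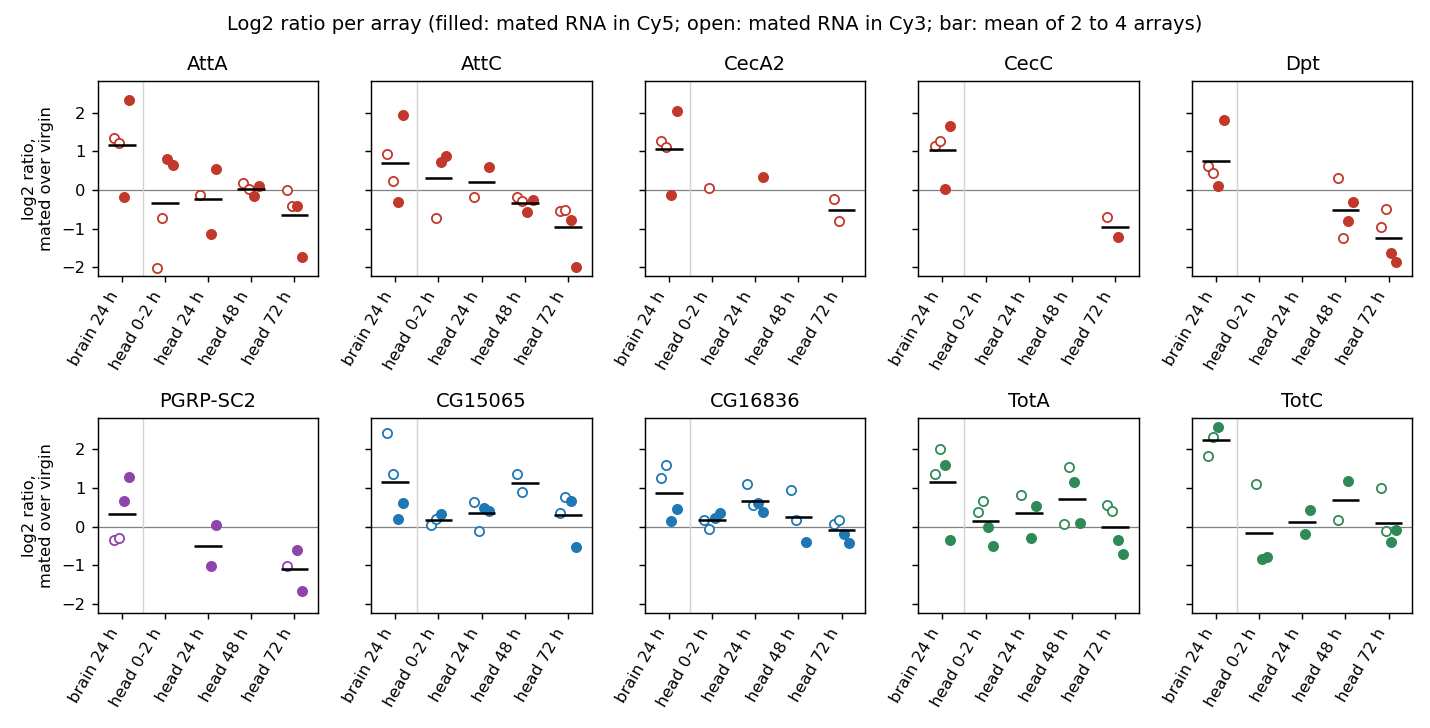
Log2 ratio, mated over virgin, on each array (y axis) for each gene (panels) in brains at 24 h and in heads at 4 times (x axis), with filled points for mated RNA in Cy5, open points for mated RNA in Cy3 and bars for means of 2 to 4 arrays. Dpt and CecC show brain values above 0 and 72 h values below 0, with CecC listed in both experiments and Dpt at 72 h. At 0-2 h the filled and open points of AttA, AttC, TotA and TotC stand apart.

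The Bomanin genes lie next to each other in the RefSeq annotation and encode short secreted peptides. CG15065 had 2.42, 1.36, 0.21 and 0.61 on the brain arrays, a mean of 1.15 ± 0.97 (SD, n = 4) or 2.21-fold. CG16836 had 1.25, 1.60, 0.15 and 0.46 there, a mean of 0.86 ± 0.68 (SD, n = 4) or 1.82-fold. Both were listed in brains, all 8 values were above 0, and replicates 1 and 2 were the high arrays, unlike for the antibacterial genes, where replicate 4 was.

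In heads the Bomanin genes were mostly above 0 up to 48 h. At 24 h CG16836 was listed, with 1.11, 0.56, 0.60 and 0.38, a mean of 0.66 ± 0.32 (SD, n = 4) or 1.58-fold, and CG15065 had 0.64, -0.11, 0.49 and 0.41. CG16836 was thus the 1 of 4 members with at least 3 values at 24 h that had all of them above 0, as 15.3% of 2282 probes did. At 48 h CG15065 was listed on 2 values, 1.35 and 0.90 on replicates 1 and 2, and CG16836 had 0.94, 0.17 and -0.39 on replicates 1, 2 and 4. At 72 h CG15065 had 0.36, 0.75, 0.65 and -0.52 and CG16836 had 0.07, 0.18, -0.18 and -0.42, each with replicate 4 lowest. At 0-2 h the 7 values of both genes lay between -0.05 and 0.35.

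TotC had the highest mean of the 10 genes in brains, where it was listed: 1.83, 2.32 and 2.58 on replicates 1 to 3, a mean of 2.25 ± 0.38 (SD, n = 3) or 4.74-fold, with no value on replicate 4. Its neighbour TotA had 1.35, 2.01, 1.59 and -0.34, a mean of 1.15 ± 1.03 (SD, n = 4), and 1.65 without replicate 4. For the Turandot genes replicate 4 was therefore the low or missing array, and replicate 3, on which the antibacterial genes were near 0, was high.

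In heads the Turandot means lay between -0.17 and 0.72. At 48 h TotA had 0.07, 1.55, 1.14 and 0.10 and TotC had 0.18 and 1.18 on replicates 1 and 3, so all 6 values were above 0, and TotA was the 1 of 5 members with at least 3 values that had all of them above 0, as 13.6% of 2272 probes did. At 24 h TotA had 0.81, -0.30 and 0.54 on replicates 1, 3 and 4 and TotC had -0.20 and 0.42 on replicates 3 and 4. At 72 h TotA had 0.56, 0.41, -0.35 and -0.71 and TotC had 1.00, -0.11, -0.40 and -0.09, with group means near 0.

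In brains 5 of 10 members had all their values above 0 (CecC, Dpt, CG15065, CG16836 and TotC), which 8.07% of 5961 probes with at least 3 values did, and 4 of these 5 were listed in brains. No probe on the array passed an adjusted p under 0.05 with limma's moderated test there, 0 of 6498 or 0%, with 368 at an unadjusted p under 0.05. Markers of muscle had means above 0 in brains, 3 of 3 genes, with medians of 1.04, 0.44, 0.71 and 0.38 on replicates 1 to 4, and those of fat body, all 6 with a mean below 0, had medians of 0.48, -1.05, -0.50 and -0.10. The 6 neuronal markers all had means below 0, with medians of -0.67, -0.40, -0.78 and -0.76, and 2 of 3 eye markers had means above 0, with medians of 0.75, 0.34, 0.69 and 0.55. All neuronal and muscle markers, 2 of the eye markers and Obp99b of the fat body were themselves listed in brains. Nothing is therefore read from the direction of the marker means. Of all 6498 probes tested in brains, 47.9% had a mean above 0. The antibacterial genes with PGRP-SC2 had medians of 1.03, 0.77, -0.05 and 1.88 on the same arrays. The part of these tissues in the brain values was not tested.

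**Figure D3:**
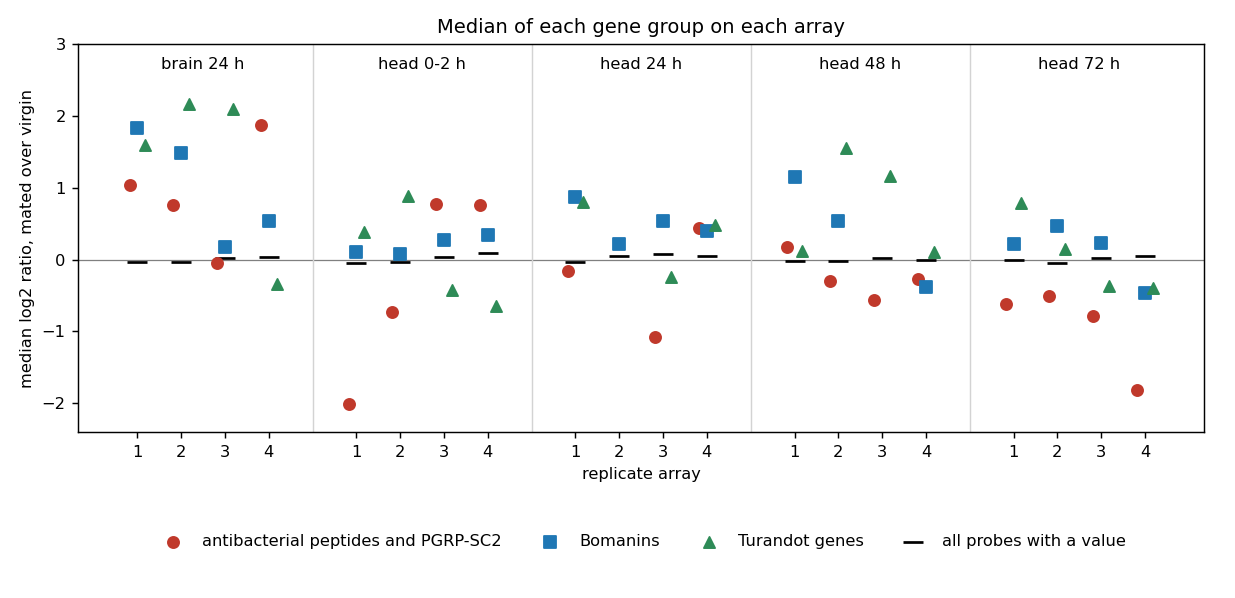
Median log2 ratio, mated over virgin (y axis), on each replicate array (x axis) of the antibacterial genes with PGRP-SC2 (circles), the Bomanin genes (squares) and the Turandot genes (triangles), with bars for the median of all probes with a value on that array. In brains the circles are highest on replicate 4, where the triangle is at -0.34, and lowest on replicate 3, where the triangle is at 2.09.

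Across arrays, values of the antibacterial genes were alike in all 9 pairs that shared at least 6 arrays, with Pearson's r between 0.88 and 0.95 (6 to 17 arrays a pair), AttA and AttC at 0.95 over 17. TotA and TotC had r = 0.92 over 14 arrays and the 2 Bomanin genes 0.71 over 17. Between antibacterial and Turandot genes r ran from -0.06 to 0.67 over 9 pairs. Points of the same experiment share its mean, and genes of 1 array share its RNA, so r was also taken after the mean of each experiment was subtracted: it was then 0.70 to 0.93 within the antibacterial genes, 0.67 for TotA with TotC, 0.69 for the Bomanin genes, and below 0 in 8 of 9 antibacterial and Turandot pairs, from -0.61 to 0.09. PGRP-SC2 had r of 0.49 to 0.85 with the antibacterial genes and -0.04 to 0.56 within experiments. These are descriptions without a test. The dye carried by mated RNA was not subtracted. At 0-2 h, arrays with mated RNA in Cy5 minus those in Cy3 differed by 2.09 for AttA and 1.54 for AttC. For TotA and TotC this was -0.78 and -1.91. The part of the dye in these r was not tested. AttA lies beside AttB, CecA2 beside CecA1 and CecB, CecC beside CecB, Dpt (RefSeq DptA) beside DptB, and PGRP-SC2 beside PGRP-SC1b. TotC lies between TotA and TotB, and CG15065 and CG16836 lie beside each other and further Bomanin genes. A signal from such a related copy on the same spot cannot be told apart here, also within the pairs correlated above.

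**Figure D4:**
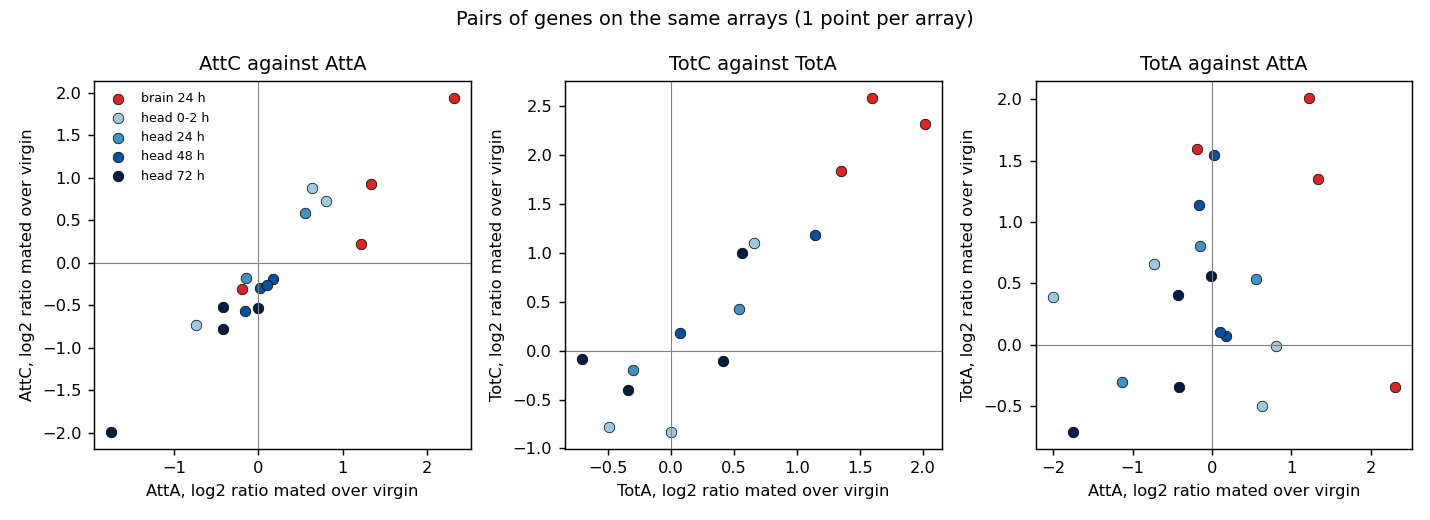
Log2 ratio, mated over virgin, of AttC against AttA (left), TotC against TotA (middle) and TotA against AttA (right), with 1 point per array, red for brains and light to dark blue for heads from 0-2 to 72 h. The first pairs follow a line (r = 0.95 over 17 arrays and 0.92 over 14) and the third does not (r = 0.21 over 19).

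At 0-2 h, the experiment in which no member was listed, 6 members had at least 2 values and were tested. Lying outside the list already bounds how extreme their values could be, so nothing is read from a failure to pass. None passed the test, with means between -0.33 (AttA) and 0.29 (AttC), p between 0.236 and 0.674, and adjusted p between 0.914 and 0.997 with limma and Benjamini-Hochberg adjustment over all probes. Of all probes, 3 of 3871, 0.0775%, passed the adjusted threshold there and 245, 6.33%, an unadjusted p under 0.05. The means hid arrays that stood far from 0 on both sides. AttA was at 0.80 and 0.63 with mated RNA in Cy5 and at -2.01 and -0.74 with mated RNA in Cy3, and AttC at 0.73 and 0.88 against -0.73. The Turandot genes went the other way, TotC at -0.83 and -0.78 with mated RNA in Cy5 and 1.10 with mated RNA in Cy3, and TotA at -0.01 and -0.50 against 0.39 and 0.66.

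The difference between dye orientations is part of the spread between arrays, which enters the ranking of the lists, so it is given a test for unlisted members and as a description for listed ones. It was tested with limma for every probe measured on 3 or more arrays and in both orientations, a test added after the values had been seen. At 0-2 h the arrays with mated RNA in Cy5 minus those with mated RNA in Cy3 differed by 2.09 ± 0.34 for AttA (SE, adjusted p = 0.00402), 1.54 ± 0.24 for AttC (adjusted p = 0.00402), -1.91 ± 0.24 for TotC (adjusted p = 0.00182) and -0.78 ± 0.22 for TotA (adjusted p = 0.0277), 4 of 6 members, and 770 of 2556 probes or 30.1% passed the same threshold. The Bomanin genes differed by 0.20 ± 0.24 for CG15065 and 0.22 ± 0.19 for CG16836 (SE), with adjusted p of 0.547 and 0.404. Without replicate 3 the adjusted p of AttA was 0.0575, and that of TotA was 0.0890, 0.194 and 0.127 without replicates 1, 2 and 4. In brains 1458 of 5961 probes or 24.5% passed. Of the unlisted members there PGRP-SC2 passed, at 1.29 ± 0.26 (SE, adjusted p = 0.0222, and 0.0585 without replicate 1), and AttC and Dpt did not, at 0.24 ± 0.67 and 0.43 ± 0.51 (SE) with adjusted p of 0.803 and 0.537. Among the listed, the Bomanin genes were lower with mated RNA in Cy5, by -1.48 for CG15065 and -1.13 for CG16836, and the other 5 differences lay between -1.05 (TotA) and 0.51 (TotC).

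The arrays as a whole turned with the dye in these experiments. Over all probes, arrays of opposite orientation correlated at -0.46 to -0.39 at 0-2 h and at -0.39 to -0.22 in brains, while those of the same orientation correlated at 0.62 to 0.69 and 0.59 to 0.64. In heads at 24, 48 and 72 h opposite orientations correlated at -0.07 to 0.13, 0.14 to 0.44 and -0.08 to 0.38, and the orientation difference passed the threshold for 4, 0 and 1 probes. The difference at 0-2 h correlated with that at 24 h at 0.50 over 1228 probes and with that in brains at 0.21 over 1630, but with that at 72 h at -0.12 over 1647. The labels give the dye of each sample, and the turning of the swapped arrays was read from the match of the deposited means to the study's mated over virgin averages. It was not tested array by array, and were it wrong, the ratios of replicates 3 and 4 would change sign. In brains the TotC values, listed there, had 1 sign in both orientations as deposited, at 2.58 with mated RNA in Cy5 and at 1.83 and 2.32 with mated RNA in Cy3. Since replicates 1 and 2 share an orientation, as do replicates 3 and 4, dye and the samples that carried it cannot be told apart on 4 arrays.

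**Figure D5:**
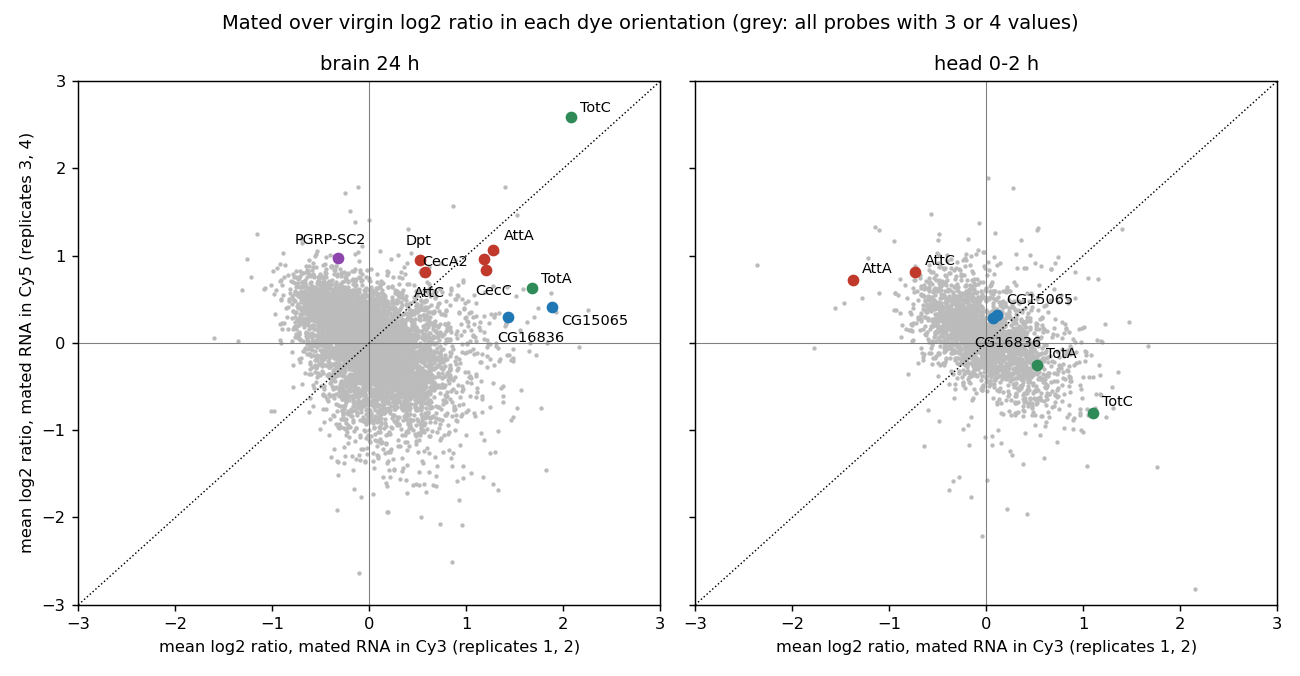
Mean log2 ratio, mated over virgin, with mated RNA in Cy5 (y axis, replicates 3 and 4) against that with mated RNA in Cy3 (x axis, replicates 1 and 2) in brains at 24 h (left) and heads at 0-2 h (right), with all probes of 3 or 4 values in grey and the members named; the dotted line marks equal values. At 0-2 h AttA and AttC lie at upper left and TotA and TotC at lower right. In brains 9 of 10 members lie to the right of 0 on the x axis and above 0 on the y axis, the exception being PGRP-SC2. Of the 10 members 7 were listed in brains and none at 0-2 h, so nothing is read from the contrast of the panels. Single brain arrays of AttA, AttC, CecA2 and TotA lay below 0.

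Some members outside a list had means near those of members inside it, though the lists rank by false discovery rate and not by the mean. In brains CG16836 had the smallest mean of the listed members, 0.86 ± 0.68. Dpt had the largest mean of the unlisted members there, 0.74 ± 0.74 (SD, n = 4 each). At 72 h AttC, at -0.96, was inside and AttA, at -0.65, outside, both on 4 arrays. Among the unlisted, 3 members in brains, 6 at 24 h, 6 at 48 h and 6 at 72 h had at least 2 values, and none passed the adjusted threshold, with adjusted p from 0.246 (TotA at 48 h) upward. An unadjusted p under 0.05 was found for Dpt in brains (0.0316), AttC and TotA at 48 h (0.0431 and 0.0250) and AttA and CecA2 at 72 h (0.0283 and 0.0362); being unlisted already bounds how extreme these values could be. Of all probes tested, the adjusted threshold was passed at 24 h by 1 of 4140 (0.0242%), at 48 h by 74 of 2981 (2.48%), and at 72 h by 5 of 6416 (0.0779%). An unadjusted p under 0.05 was found for 5.66% of all probes in brains, 7.87% at 24 h, 15.1% at 48 h and 8.49% at 72 h.

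Differences between experiments were fitted for the members on plates with the same gene throughout, and tested where neither experiment listed the gene. The spread for differences between head times came from all head arrays, also those of times that listed the gene. None of 15 such differences passed the adjusted threshold, and none had an unadjusted p under 0.05. Being in neither list already bounds how extreme the values compared could be. Brain minus head at 24 h was 0.82 ± 0.50 for PGRP-SC2 and 0.49 ± 0.55 for AttC (SE), with adjusted p of 0.624 and 0.802; 0.2% of 2499 probes passed. The 5 differences of 24 h minus 0-2 h lay between -0.09 and 0.28 (0.873% of 2406 probes passed), the 4 of 48 h minus 24 h between -0.54 and 0.57 (0% of 1827 passed), and the 4 of 72 h minus 48 h between -0.74 and -0.33 (0.232% of 2159 passed). The lowest p of the 15 was 0.0698, for TotA at 72 h minus 48 h. For the listed genes the means stand side by side at 24 h: TotC was at 2.25 in brains and 0.11 in heads, AttA at 1.17 and -0.24, TotA at 1.15 and 0.35, CG15065 at 1.15 and 0.36, and CG16836 at 0.86 and 0.66.

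Of 14 other immune genes that the study's lists name, 13 could be placed on the array, all 13 with at least 2 values in brains. There 7 were listed, all with means above 0, from 0.54 to 0.97: CG16712 (IM33, an immune-induced peptide), nimB4 of the nimrod family, Hf, the clotting gene fon, CG11501, and the C-type lectin genes lectin-24Db and lectin-28C. The brain list as a whole held 72 entries with a mean above 0 and 28 with a mean below 0, and the immune genes were taken from such lists, so nothing is read from this count. In brains and in heads only genes outside the list of the experiment were tested, which already bounds how extreme their values could be. Nothing is therefore read from a failure to pass. Of the 6 tested in brains none passed the adjusted threshold and nimB1 had an unadjusted p under 0.05, with 0.84, 0.38 and 0.62 on replicates 1 to 3. Def, which encodes the peptide defensin, had 1.29, 1.37 and -1.88 on brain replicates 1, 3 and 4, low on replicate 4 as TotA was and AttA was not. In heads at 72 h none of 11 tested passed the adjusted threshold, CG16712 had 4 of 4 values below 0 (mean -0.28) with an unadjusted p under 0.05, and the genes listed there went both ways, nimB1 with a mean of -0.53 and CG5779 with 2.15 and 1.48 on replicates 2 and 3. Of the 13 with at least 2 values at 72 h 6 had a mean above 0, Def among them at 0.25, and 7 a mean below 0. Rel, which encodes Relish, was listed at 0-2 h on 2 values, -0.62 and -2.08, and had -0.21, -0.20 and -0.45 on replicates 1, 3 and 4 at 72 h. At 24 and 48 h 7 genes each were tested, none passed the adjusted threshold, and nimB4 (mean 0.41 at 24 h, 4 of 4 values above 0) and CG11501 (mean 1.06 at 48 h, 4 of 4 above 0) had an unadjusted p under 0.05. The share of all probes with such a p was 5.66% in brains, 7.87% at 24 h, 15.1% at 48 h and 8.49% at 72 h.

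Among 206 other named probes with at least 10 arrays in common, those most like the median of the members by array were CG10814 (r = 0.88, Spearman's rho = 0.88, 13 arrays), CG16704 (r = 0.82, rho = 0.84, 16 arrays), CG4716 (r = 0.82, rho = 0.80, 19 arrays), CG13086 (r = 0.81, rho = 0.64, 10 arrays) and CG16712 (r = 0.79, rho = 0.74, 19 arrays). The median r over the 206 was 0.24. All 5 had means below 0 in heads at 72 h, of -2.98, -0.73, -0.44, -0.73 and -0.28, and above 0 in brains, of 0.05, 0.62, 0.49, 0.05 and 0.59. After the mean of each experiment was subtracted, r was 0.78, 0.48, 0.55, 0.81 and 0.49. They were chosen for likeness, so these values carry no test, and 3 of the 5 (CG10814, CG16704 and CG13086) were listed at 72 h and the other 2 in brains.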

How the data were processed

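Mated and virgin females were compared on 2-colour oligonucleotide arrays, 20 in all. The authors deposited normalized log2 ratios of mated over virgin, with the sign of dye-swapped arrays taken to be turned, since the means match the study's mated over virgin averages. How arrays were scanned, corrected for background and normalized, and why cells are empty, is not given in the sources used here. Of 15776 rows 32 controls were left out, and an array held 1818 to 6466 values, which with 4 arrays per experiment limits the precision. Names came from the study's lists, matched by mean ratio (relative tolerance 2e-05): 496 of 500 entries matched 1 row, and all 13 member entries also matched by p (relative tolerance 0.0001). Rows of plates 2 to 30 hold the same gene in every experiment; others were used within heads at 0-2 and 24 h, or within 48 h, 72 h and brains.

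Probes with at least 2 values were tested with limma 3.58.1 (lmFit, eBayes, R 4.3.3), adjusted by Benjamini-Hochberg over all probes at 0.05. Brain minus head at 24 h used 1 fit of the arrays of both experiments. Differences between head times used 1 fit of all head arrays, which share 1 estimate of the spread. The code was tested on simulated data. Tables were made with pandas 2.3.3 and numpy 2.4.6 under Python 3.11.15, and figures with matplotlib 3.10.9. The members, the gene lists and the tests were chosen with earlier results of these data known. The text names all members, 6 other immune genes with values and CG5779, added after its values were seen, and the 5 genes of highest r with the median of the members by array (arrays with at least 3 members); further immune genes are named only to say which were listed. Alternatives were centring or scaling of arrays, a dye term, values on all 4 arrays, robust eBayes, all arrays in 1 fit, a replicate block and each replicate left out. The test of dye orientation was added after the data were seen. RefSeq Release 6 supplied current symbols and neighbours only.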

Additional observations from a re-analysis of the deposited data

Results flagged for a closer look

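CecC and Dpt, which encode a cecropin and diptericin, had every value above 0 in brains at 24 h and every value below 0 in heads at 72 h. Their brain mean minus their 72 h mean was 1.98 for each gene, on the log2 scale. The difference was not tested, since the lists that chose the genes rest on these values. The 72 h mean of CecC rests on 2 arrays. The time after mating, the tissue and the labelling differ between these experiments and cannot be told apart. Brain and 72 h values did not overlap for AttC, CecA2 (2 values at 72 h), PGRP-SC2 and TotC either. Nothing is read from this, since the share of all probes without overlap was not counted. AttC and PGRP-SC2 were also listed at 72 h, and CecA2 and TotC in brains. Of probes with at least 3 values, 8.07% had all above 0 in brains and 11.6% all below 0 at 72 h. Among the member and experiment pairs with 4 values, no single array stood apart from the other 3 by Dixon's criterion. That does not show that the arrays were alike, since with 4 values only a very large gap passes. Some of these pairs were listed, and the spread between arrays enters the ranking of the lists. For AttC at 72 h, which was listed, replicate 4 was at -1.99 and the other 3 lay between -0.78 and -0.53.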

How the results depend on the processing

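The median over the members kept its sign in brains (1.04; 0.98 to 1.05 with arrays centred, scaled or complete, 0.80 to 1.23 without 1 replicate) and at 72 h, where it was -0.089 with values required on all 4 arrays, which left 7 of 10 genes. At 48 h it was -0.15 with all 4 values (4 genes), and -0.11 to 0.55 without 1 replicate.

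Counts of probes past the adjusted threshold were small and moved. With a dye term they were 6 in brains and 47, 51, 104 and 47 in heads from 0-2 to 72 h. With values on all 4 arrays they were 1 in brains, 1 at 0-2 h, 0 at 24 h and 0 at 72 h. Centring gave 0 at 0-2 h, scaling 0 at 24 h and 12 at 72 h, and 1 fit of all 20 arrays 83 at 24 h and 2 at 72 h. Without 1 replicate the counts ran from 0 to 2 at 0-2 h, 1 to 3 at 24 h, 14 (replicate 3) to 91 (replicate 4) at 48 h and 3 to 12 at 72 h.

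With the replicate number as a block the differences gave 17 probes instead of 5 for brain minus head at 24 h and 0 instead of 5 for 72 h minus 48 h; no member passed. Same-numbered arrays deviated together (r over 0.1) in 6 of 16 pairs, from -0.23 to 0.34, so the number was not taken to pair samples. Without 1 replicate the counts were 0 to 11, 6 to 14 (24 h minus 0-2 h) and 0 to 3 (72 h minus 48 h).

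Member ratios changed sign in 2 of 213 values under other settings and in 11 of 146 without 1 replicate. TotC at 0-2 h was 0.15 with a dye term and TotA at 72 h was 0.025 with arrays scaled. Without 1 replicate the ranges were -0.70 to 0.23 for AttA, -0.040 to 0.35 for TotA and -0.81 to 0.16 for TotC at 0-2 h, and -0.64 to 0.20 for AttA at 24 h. They were -0.013 to 0.099 for AttA and -0.11 to 0.55 for CG16836 at 48 h, and -0.18 to 0.022 for CG16836, -0.22 to 0.21 for TotA and -0.20 to 0.27 for TotC at 72 h.

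The orientation differences in brains ran without 1 replicate from -1.47 to 1.04 for AttA, -0.89 to 1.37 for AttC, -1.31 to 0.87 for CecA2, -1.18 to 0.45 for CecC and -0.42 to 1.29 for Dpt, the ends being reached without replicate 4 and without replicate 3. Differences between experiments ran from -0.52 to 0.91 for AttA, -0.60 to 0.13 for AttC and -0.095 to 0.49 for TotA at 24 h minus 0-2 h, and from -0.10 to 0.65 for AttA and -0.10 to 0.81 for TotA at 48 h minus 24 h. Depth is not readable from ratios, and the number of arrays limits the precision.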
